A study of Mus musculus with 8 samples.

Results

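The D subfamily of ATP-binding cassette (ABC) transporters was followed in mouse hypothalamus through 3 of its genes, Abcd2, Abcd3 and Abcd4. They were chosen by gene family, from the platform annotation of the array, and they are 3 of the 18194 genes that could be tested. The array holds 8 probe sets paired with these genes alone, 4 for Abcd2, 2 for Abcd3 and 2 for Abcd4. Each gene is read through its brightest probe set, averaged across the 8 arrays, which is called its main probe set.

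RNA was taken from the hypothalamus of 4 Nestin-Pex5-/- mice and 4 wild type mice, all 10 weeks old, and each mouse was measured on 1 Affymetrix whole-genome mouse expression array. In Nestin-Pex5-/- mice, a Cre recombinase under the Nestin promoter removes loxP-flanked Pex5 in neural progenitors, so that neurons, astrocytes and oligodendrocytes lose functional peroxisomes. Microglia do not descend from these progenitors, and a whole hypothalamus holds both kinds of cell. PEX5 is the receptor that brings enzymes into the peroxisomal matrix.

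ABCD proteins are half-transporters that pair up in an organelle membrane and use ATP to move their substrate across it. ABCD2 and ABCD3 sit in the peroxisomal membrane and bring acyl-CoA esters to beta-oxidation. ABCD2 accepts very long-chain and polyunsaturated fatty acids, and ABCD3, also called PMP70, accepts branched-chain and dicarboxylic acids and bile acid precursors. ABCD4 belongs to the family by sequence but works in the lysosomal membrane, where it releases cobalamin (vitamin B12) together with LMBD1. Peroxisomal membrane proteins of this kind are inserted with the help of PEX19 and PEX3 and do not depend on PEX5.

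None of the 3 genes differed between the genotypes at an adjusted p under 0.05. The main probe sets of all 3 averaged slightly higher in Nestin-Pex5-/- hypothalamus. Scaling to Actb, which shifts all genes down alike, put Abcd3 and Abcd4 below 0, while scaling to 9 reference genes left them above 0. Abcd2 came closest, at 1.19-fold with no overlap between the genotypes, while Abcd3 averaged 1.05-fold and Abcd4 1.04-fold with overlapping arrays. The test was limma across all genes with Benjamini-Hochberg adjustment, which called 868 genes, 4.77% of those tested. Without adjustment, 1 of the 3 genes, Abcd2, had a p under 0.05, against 16.9% of all genes. A test without moderated variances, with the same adjustment, also called 0 of the 3, and 560 of all 18194 genes. Limma with array weights called 1 of the 3, again Abcd2, but it called 2050 of all 18194 genes.

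Values are RMA signals on the log2 scale, and each is given for Nestin-Pex5-/- replicates 7, 8, 9 and 10 and then for wild type replicates 1, 2, 3 and 4. A level is read only between arrays within a probe set, because probe sets differ in how brightly they bind.

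Abcd2, the transporter of very long-chain and polyunsaturated acyl-CoAs, read 8.46, 8.59, 8.53 and 8.67 in Nestin-Pex5-/- hypothalamus on its main probe set 1419748_at. The same probe set read 8.21, 8.42, 8.22 and 8.41 in wild type hypothalamus. Every Nestin-Pex5-/- array lay above every wild type array, though the gap between the lowest of the one and the highest of the other was narrow beside the spread within either genotype. The means were 8.56 ± 0.090 in Nestin-Pex5-/- and 8.32 ± 0.113 in wild type hypothalamus (SD, n = 4 each). The log2 fold change was 0.25 ± 0.074 (SE), which is 1.19-fold with a 95% interval of 1.06 to 1.33. The limma p was 0.00812 before and 0.112 after adjustment over all genes, and the largest unadjusted p among called genes was 0.00236. By p-value Abcd2 ranked 1321 of 18194. The exact two-sided permutation test gave p = 0.029 (n = 4 each), the smallest value its 70 assignments allow. Of all genes, 6.63% had non-overlapping arrays with Nestin-Pex5-/- higher, so this separation alone does not set Abcd2 apart.

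The other Abcd2 probe sets did not all give the same picture. Probe set 1438431_at read 7.80, 7.85, 7.75 and 7.88 in Nestin-Pex5-/- hypothalamus, and 7.64, 7.44, 7.52 and 7.73 in wild type hypothalamus. Here too the genotypes did not overlap, and the fold was 1.18 (limma over all probe sets, adjusted p = 0.145). Probe set 1456812_at read 6.68, 6.76, 6.82 and 6.87 in Nestin-Pex5-/- hypothalamus, and 6.55, 6.67, 6.58 and 6.69 in wild type hypothalamus. Wild type replicate 4 lay just above Nestin-Pex5-/- replicate 7 on it, and the fold was 1.12 (limma adjusted p = 0.279, exact permutation p = 0.0571). The dimmest, 1439835_x_at, read 4.93, 4.84, 4.84 and 5.0 in Nestin-Pex5-/- hypothalamus, and 4.87, 4.99, 4.88 and 5.26 in wild type hypothalamus. Its fold was 0.934 (limma adjusted p = 0.671), so its direction was opposite to the other Abcd2 probe sets. The ending _x_at marks a probe set in which some probes also match other sequences. With the mean of all Abcd2 probe sets in place of the main one, the log2 fold change was 0.14 and its adjusted p 0.333 (limma).

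**Figure D1:**
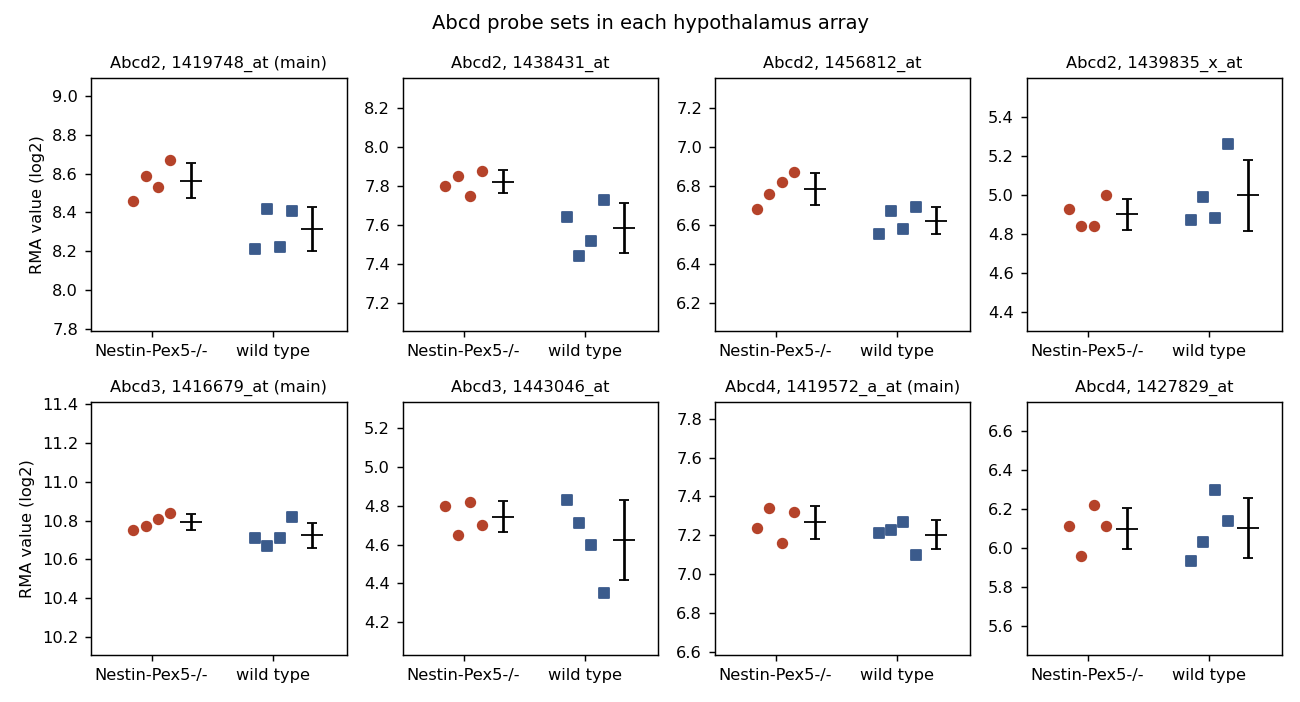
RMA values (log2) of the 8 Abcd probe sets in each array, Nestin-Pex5-/- as circles and wild type as squares, with bars for the mean and SD of 4 arrays; every vertical axis spans the same log2 range. The genotypes separate on Abcd2 probe sets 1419748_at and 1438431_at and overlap on the others.

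Abcd3 encodes PMP70, one of the most abundant proteins of the peroxisomal membrane and widely used as its marker. Its main probe set 1416679_at read 10.75, 10.77, 10.81 and 10.84 in Nestin-Pex5-/- hypothalamus, and 10.71, 10.67, 10.71 and 10.82 in wild type hypothalamus. Wild type replicate 4 lay within the Nestin-Pex5-/- range, and the other wild type arrays lay below it. The means were 10.79 ± 0.040 in Nestin-Pex5-/- and 10.72 ± 0.065 in wild type hypothalamus (SD, n = 4 each). The log2 fold change was 0.069 ± 0.055 (SE), or 1.05-fold with a 95% interval of 0.962 to 1.14 (limma adjusted p = 0.578). The exact two-sided permutation p was 0.171. Probe set 1443046_at was dim, at 4.80, 4.65, 4.82 and 4.70 in Nestin-Pex5-/- hypothalamus and 4.83, 4.71, 4.60 and 4.35 in wild type hypothalamus. The genotypes overlapped on it and its fold was 1.09 (limma adjusted p = 0.631). The interval of the main probe set leaves room for a small difference in either direction.

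Abcd4, the lysosomal member that exports cobalamin to the cytosol, read 7.24, 7.34, 7.16 and 7.32 in Nestin-Pex5-/- hypothalamus on its main probe set 1419572_a_at. It read 7.21, 7.23, 7.27 and 7.10 in wild type hypothalamus. The ranges overlapped over most of their length. The means were 7.27 ± 0.083 in Nestin-Pex5-/- and 7.20 ± 0.076 in wild type hypothalamus (SD, n = 4 each). The log2 fold change was 0.063 ± 0.064 (SE), or 1.04-fold with a 95% interval of 0.945 to 1.16 (limma adjusted p = 0.664). Probe set 1427829_at read 6.11, 5.96, 6.22 and 6.11 in Nestin-Pex5-/- hypothalamus, and 5.93, 6.03, 6.30 and 6.14 in wild type hypothalamus, a fold of 0.998 (limma adjusted p = 0.993).

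Over the 8 Abcd probe sets, 0 were called by limma, against 3.47% of all 34958 probe sets paired with 1 gene. At an unadjusted p under 0.05 there were 3 of 8, all of Abcd2, against 14.8% of all such probe sets. The genotypes did not overlap, with Nestin-Pex5-/- higher, on 2 of 8, against 5.76%. Probe sets of 1 gene share its RNA and are not independent, so the Abcd2 probe sets count as repeated readings of the same transcripts.

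**Figure D2:**
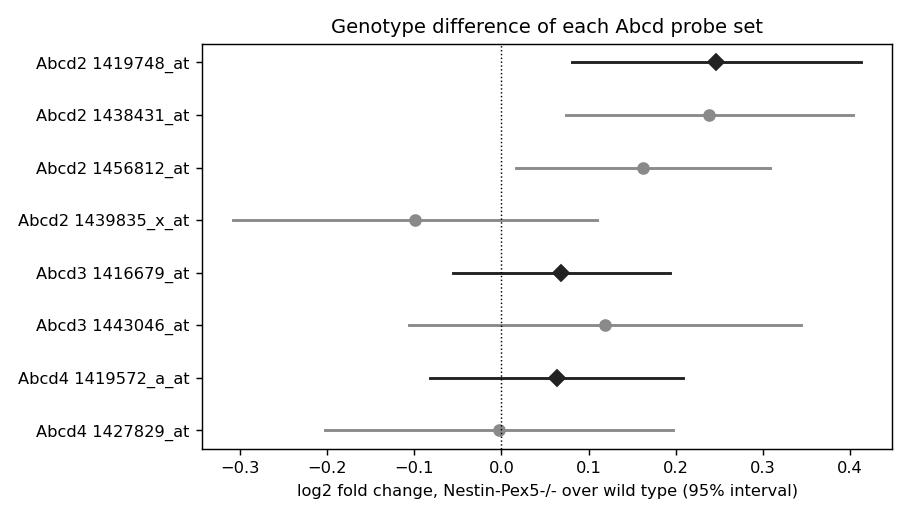
Log2 fold change of each Abcd probe set, Nestin-Pex5-/- over wild type, with its 95% interval from limma (n = 4 each); diamonds are main probe sets and circles the others. The intervals of 3 Abcd2 probe sets lie above 0, and those of Abcd3, Abcd4 and Abcd2 1439835_x_at include 0.

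Scaling to a single gene shifts every log2 fold change by the same amount. With the values of each array set against beta-actin (Actb), the median log2 fold change of all genes moved to -0.16, where it had been -0.033 in the deposited scaling. On that scale Abcd3 was at -0.059 and Abcd4 at -0.064 (limma adjusted p = 0.502 and 0.526), and Abcd2 at 0.12 (adjusted p = 0.253). Scaled to the mean of 9 reference genes, the median of all genes was at 0.0032. Abcd2 was then at 0.28, Abcd3 at 0.11 and Abcd4 at 0.10 (limma adjusted p = 0.0775, 0.452 and 0.559). Relative to the median of all genes, Abcd2 lay 0.28 above, Abcd3 0.10 above and Abcd4 0.097 above in each of these scalings. Actb itself differed by 0.13 on the log2 scale (adjusted p = 0.272), more than Abcd3 or Abcd4 did.

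Whether the 3 genes differed in their change was tested within arrays, which does not depend on scaling between arrays. The log2 value of one gene was subtracted from that of another in each array, and the mean over wild type arrays was then taken off. Abcd2 minus Abcd3 was 0.12, 0.23, 0.13 and 0.24 in Nestin-Pex5-/- hypothalamus, and -0.09, 0.16, -0.07 and 0 in wild type hypothalamus. Wild type replicate 2 lay among the Nestin-Pex5-/- arrays. The difference in change was 0.18 (exact two-sided permutation p = 0.0857, 0.171 adjusted over the 3 pairs). Abcd2 minus Abcd4 gave 0.18 as well (exact permutation p = 0.114, adjusted 0.171), and there wild type replicate 4 lay among the Nestin-Pex5-/- arrays. Abcd3 minus Abcd4 gave 0.0052 (exact permutation p = 0.857, adjusted 0.857). Unequal change between the 3 genes was therefore not detected with 4 mice per genotype.

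**Figure D3:**
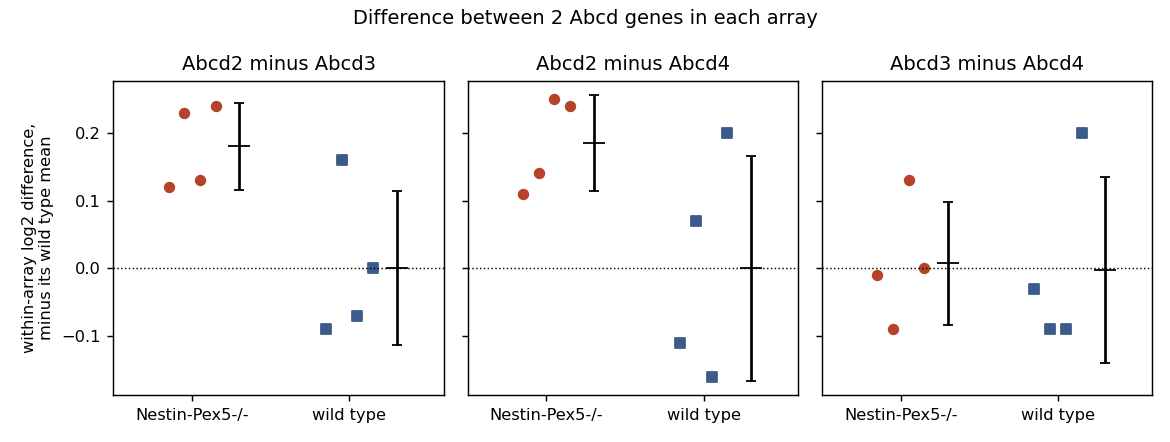
Within-array log2 difference between the main probe sets of 2 Abcd genes, less its wild type mean, for Nestin-Pex5-/- (circles) and wild type (squares) arrays, with bars for mean and SD of 4. The genotypes overlap in each of the 3 pairs.

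The genes were also described by the genes that varied most like them from mouse to mouse. Likeness was Pearson's r over the 8 arrays after the mean of each genotype was removed, among the genes at or above the median level. For Abcd2 these were Dolpp1 (r = 0.965), Zbed3 (0.891) and Dnajc17 (0.887), of 9096 genes compared. For Abcd3 they were Golga7 (0.987), Tmem144 (0.976) and Phyhipl (0.976), and for Abcd4 Tmem94 (0.990), Csnk1g1 (0.953) and Gsk3a (0.926). An r above 0.9 was reached by 1 gene for Abcd2, 114 genes for Abcd3 and 9 genes for Abcd4. These values share the same 8 arrays, were picked as the highest of all genes compared, and describe this set of mice.

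The acyl-CoAs that ABCD2 and ABCD3 carry are made by acyl-CoA synthetases and held in the cytosol by acyl-CoA-binding proteins. Of 14 measured genes of activation and binding, 2 rose, 0 fell and 12 did not pass the test, with a median log2 fold change of -0.050 against -0.033 for all genes. At an unadjusted p under 0.05, 2 were higher and 4 lower (limma), against 16.9% of all genes in either direction, and 5 of the 14 lay above 0. Dbi, the acyl-CoA-binding protein of the cytosol, averaged 12.76 ± 0.075 in Nestin-Pex5-/- and 12.42 ± 0.103 in wild type hypothalamus (SD, n = 4 each), 1.27-fold (limma adjusted p = 0.0195). Acsl5, a long-chain acyl-CoA synthetase, averaged 9.85 ± 0.017 in Nestin-Pex5-/- and 9.58 ± 0.074 in wild type hypothalamus (SD, n = 4 each), 1.21-fold (limma adjusted p = 0.0188). Both calls were lost without any one of Nestin-Pex5-/- replicates 8, 9 or 10 or wild type replicates 2 or 3, and that of Dbi also without wild type replicate 1. The adjusted p then reached 0.0739 for Dbi and 0.0642 for Acsl5. Scaled to Actb, Dbi was at 0.21 on the log2 scale (limma adjusted p = 0.0735) and Acsl5 at 0.15 (adjusted p = 0.133), and the list then held 0 higher and 2 lower calls. Scaled to the reference genes, the list held 2 higher and 0 lower calls. The call of Dbi was also lost without moderated variances (adjusted p = 0.0533 over all genes).

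Inside the peroxisome, 0 of 21 measured genes of beta-oxidation were called by limma, and their median log2 fold change was -0.023. At an unadjusted p under 0.05, 4 were higher in Nestin-Pex5-/- hypothalamus and 0 lower, against 16.9% of all genes in either direction. Eci2, an enoyl-CoA isomerase for unsaturated chains, had the smallest p, at 1.15-fold (adjusted p = 0.0762). Hsd17b4, the multifunctional enzyme that hydrates and dehydrogenates the acyl chain, averaged 9.84 ± 0.052 in Nestin-Pex5-/- and 9.71 ± 0.063 in wild type hypothalamus (SD, n = 4 each), 1.10-fold (limma adjusted p = 0.276). Scp2, whose longer product is the thiolase for branched chains, was at 1.01-fold (adjusted p = 0.968). Eci2 was named after its values were seen. Counts of the lists under the alternatives were added after the data were seen. Without wild type replicate 4, 2 of the 21 were called, both higher. Scaled to Actb 1 was called, lower, and scaled to the reference genes 1 was called, higher.

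Peroxisomal membrane proteins and the factors that insert them, the neighbours of ABCD2 and ABCD3, gave 0 calls among 20 measured genes, with a median of -0.024. At an unadjusted p under 0.05, 1 was higher and 2 were lower (limma), against 16.9% of all genes in either direction. Scaled to Actb 2 were called, both lower, and scaled to the reference genes 0 were called. Mff and Fis1, which act in the division of peroxisomes and mitochondria, were at 0.968-fold and 1.05-fold. The cobalamin route around ABCD4 gave 0 calls among 13 genes, with a median of -0.021. At an unadjusted p under 0.05 there were 0 higher and 2 lower (limma), beside the same 16.9% of all genes. Scaled to Actb, 1 of the 13 was called, lower, and scaled to the reference genes 0 were called. Lmbrd1, which encodes the partner of ABCD4, averaged 11.10 ± 0.033 in Nestin-Pex5-/- and 11.09 ± 0.045 in wild type hypothalamus (SD, n = 4 each), 1.0-fold (limma adjusted p = 0.971). Mmadhc, which directs cobalamin to its enzymes, was at 0.964-fold (adjusted p = 0.749).

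Fatty acid elongation makes the very long chains that ABCD2 carries. Of 13 measured genes, 2 rose and 0 fell, with a median of 0.092. Elovl1, the elongase of saturated very long chains, averaged 9.30 ± 0.152 in Nestin-Pex5-/- and 8.58 ± 0.370 in wild type hypothalamus (SD, n = 4 each), 1.65-fold (limma adjusted p = 0.0386). Hacd2, a dehydratase of the same cycle, averaged 9.94 ± 0.089 in Nestin-Pex5-/- and 9.54 ± 0.138 in wild type hypothalamus (SD, n = 4 each), 1.32-fold (limma adjusted p = 0.0195). The call of Elovl1 held in 2 of the 8 fits with 1 array left out, those without Nestin-Pex5-/- replicate 7 or wild type replicate 4. The call of Hacd2 held in 3 of them, those without Nestin-Pex5-/- replicate 7 or 9 or wild type replicate 4. The highest adjusted p in these fits was 0.118 for Elovl1 and 0.0679 for Hacd2. Elovl1 was also not called with the mean of its probe sets (limma adjusted p = 0.0673), without _s_at and _x_at probe sets (0.122), after renewed quantile normalization (0.0522) or without moderated variances (0.159). Hacd2 was also not called when scaled to Actb (limma adjusted p = 0.0752) or without moderated variances (0.0709). Without wild type replicate 4, 4 of the 13 were called, all higher.

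PPAR alpha, RXR, thyroid hormone receptors and SREBPs are factors known to act on Abcd2 or Abcd3 transcription in rodents. Of 15 measured receptors, factors and coactivators, 0 were called by limma, with a median of -0.108. At an unadjusted p under 0.05 there were 0 higher and 2 lower, against 16.9% of all genes in either direction. Thra, thyroid hormone receptor alpha, was at 0.920-fold (adjusted p = 0.300), and Ppargc1a, a coactivator of PPARs, at 0.896-fold (adjusted p = 0.428). The arrays of 2 others, named after their values were seen, did not overlap and were lower in Nestin-Pex5-/- hypothalamus. These were Thrb, thyroid hormone receptor beta, at -0.27 on the log2 scale (limma adjusted p = 0.0777) and Srebf2, an activator of cholesterol synthesis, at -0.17 (adjusted p = 0.101). Among all 18194 genes, 820 had non-overlapping arrays with Nestin-Pex5-/- lower. Scaled to Actb, 4 of the 15 were called, all lower, and scaled to the reference genes 0 were called.

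Among 18 measured PPAR target genes and genes of mitochondrial fatty acid oxidation, 4 rose and 0 fell, with a median of 0.062. Fabp7, the fatty acid-binding protein of astrocytes and radial glia, averaged 11.98 ± 0.135 in Nestin-Pex5-/- and 11.15 ± 0.116 in wild type hypothalamus (SD, n = 4 each), 1.78-fold (limma adjusted p = 2.9e-04). Angptl4, an inhibitor of lipoprotein lipase, was at 1.74-fold (adjusted p = 0.00858). Its log2 fold change was 0.038 (adjusted p = 0.808) once probe sets ending in _s_at or _x_at were left out, where another of its probe sets stands for the gene. Plin2, a coat protein of lipid droplets, was at 1.27-fold (adjusted p = 0.0174), and Acadl, a mitochondrial acyl-CoA dehydrogenase, at 1.24-fold (adjusted p = 0.0148). The call of Plin2 was lost without Nestin-Pex5-/- replicate 10 or wild type replicate 1 or 3, with an adjusted p of up to 0.0618. That of Acadl was lost without Nestin-Pex5-/- replicate 8 or wild type replicate 2, with an adjusted p of up to 0.0534. With the mean of its probe sets, Acadl was at 0.15 on the log2 scale (limma adjusted p = 0.146). Scaled to Actb, Acadl was at 0.19 (limma adjusted p = 0.103) and Plin2 at 0.21 (0.100), which left 2 of the 18 called, both higher. Scaled to the reference genes, 4 of the 18 were called, all higher. Without moderated variances Angptl4 was not called (adjusted p = 0.0687).

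Of the 42 other ABC family genes measured, 2 rose and 0 fell, with a median of -0.052. Abca9 averaged 8.26 ± 0.125 in Nestin-Pex5-/- and 7.46 ± 0.172 in wild type hypothalamus (SD, n = 4 each), 1.75-fold (limma adjusted p = 8.7e-04). With the mean of its probe sets, Abca9 was at 0.36 on the log2 scale (limma adjusted p = 0.0431), against 0.80 on its main probe set. Abca1, which loads cholesterol and phospholipid onto apolipoproteins, averaged 10.98 ± 0.065 in Nestin-Pex5-/- and 10.37 ± 0.104 in wild type hypothalamus (SD, n = 4 each), 1.53-fold (limma adjusted p = 4.8e-04). The differences of Abcd3 and Abcd4 lay well within the range of the ABC genes that were not called. Abcd2, at 0.25 on the log2 scale, lay near the top of that range. Of the uncalled ABC genes only Abcc3, at 0.38, lay above it, and the next was Abca2 at 0.18. Abcc3 and Abca2 were named after their values were seen.

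**Figure D4:**
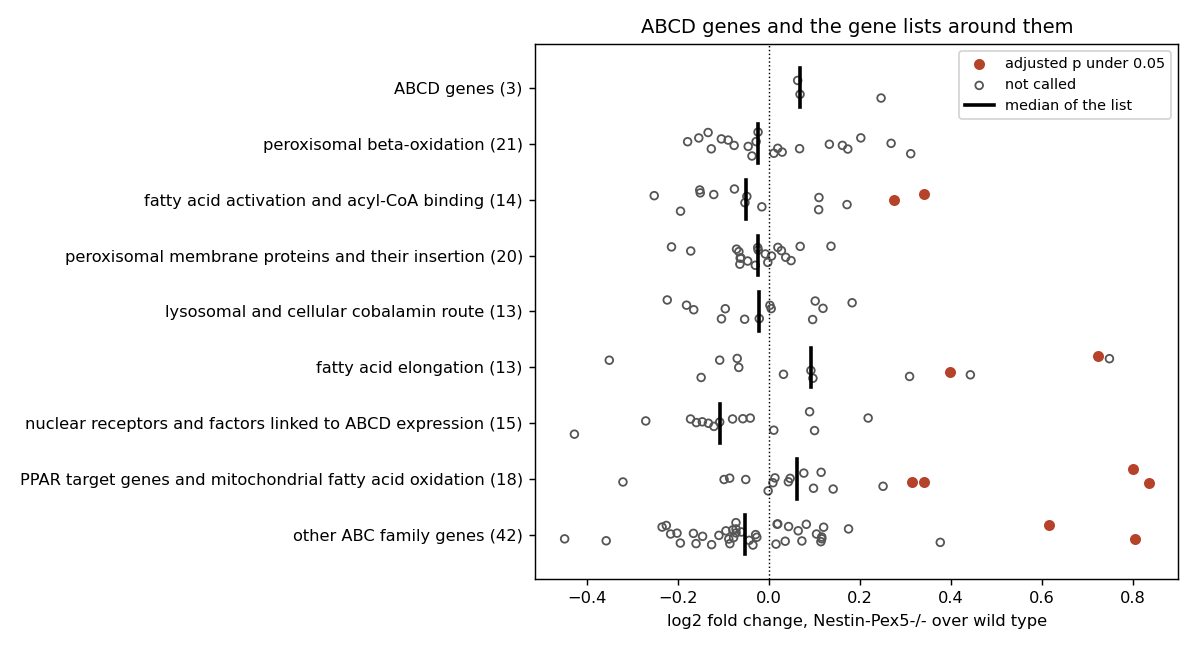
Log2 fold change, Nestin-Pex5-/- over wild type, of the 3 Abcd genes and of each measured gene in 8 lists; filled points had an adjusted p under 0.05 in limma, bars mark medians, and brackets give the number of genes. The 3 Abcd genes are open points, at 0.25, 0.069 and 0.063, of which the last 2 lay below 0 when scaled to Actb.

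Across all genes, 724 rose and 144 fell. Wild type replicate 4 stood apart from the other wild type arrays: 155 genes lay more than 2-fold from their average in wild type replicates 1, 2 and 3, and Ttr, the transthyretin of choroid plexus, read 10.51 on it and 14.47 to 14.59 on the others. Without it, Abcd2 was at 0.28 on the log2 scale (limma adjusted p = 0.0617). Pmch and Avp, neuropeptide genes of the hypothalamus, averaged 12.51 and 11.52 in Nestin-Pex5-/- and 12.64 and 11.52 in wild type hypothalamus. Of 16 hypothalamic neuron markers 0 were called by limma, and 2 were lower at an unadjusted p under 0.05, against 16.9% of all genes in either direction. Only 1 of the 16, Avp, had a log2 fold change above 0, and their median was -0.19 against -0.033 for all genes. Their mean log2 value was 8.56 to 9.08 in Nestin-Pex5-/- and 8.75 to 9.02 in wild type hypothalamus. The Pex5 probe set averaged 8.67 in Nestin-Pex5-/- and 8.66 in wild type hypothalamus (limma adjusted p = 0.946). Whether its probes lie in the deleted part is not given in the sources used here, so it does not check the genotype labels.

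Markers of several cell types differed between the genotypes. In a whole hypothalamus, fewer cells of a type and less RNA per cell cannot be told apart. The mean log2 value of 14 microglia and macrophage markers was 10.08 to 10.41 in Nestin-Pex5-/- and 7.81 to 8.08 in wild type hypothalamus, and 13 of the 14 rose. Ptprc, the leukocyte antigen CD45, was at 10.7-fold, C1qb and C1qc, chains of complement C1q, at 9.40-fold and 9.34-fold, and Adgre1, an adhesion receptor of macrophages, at 7.99-fold. The mean of 12 astrocyte markers was 11.44 to 11.54 in Nestin-Pex5-/- and 11.00 to 11.23 in wild type hypothalamus. Of the 12, 3 rose, Gfap at 6.76-fold, Aqp4 at 2.15-fold and Sox9 at 1.41-fold. The median log2 fold change of the 12 was only 0.11, with 8 above 0, and 1 was lower at an unadjusted p under 0.05. The mean of 12 markers of mature oligodendrocytes was 11.35 to 11.85 in Nestin-Pex5-/- and 10.93 to 11.69 in wild type hypothalamus. Wild type replicate 4 gave the 11.69, and the other wild type arrays lay at 10.93 to 11.16. Limma called 0 of 12, and 7 were higher at an unadjusted p under 0.05, against 16.9% of all genes in either direction. All 12 lay above 0, with a median log2 fold change of 0.39. Of 8 precursor markers, 2 rose, Gpr17 at 1.92-fold and Bcas1 at 1.44-fold, over a list mean of 9.72 to 10.04 in Nestin-Pex5-/- and 9.30 to 9.75 in wild type hypothalamus. The 9.75 was again wild type replicate 4, with the other wild type arrays at 9.30 to 9.37. All 8 precursor markers had a log2 fold change above 0, with a median of 0.45. At an unadjusted p under 0.05, 6 of them were higher and 0 lower (limma), against 16.9% of all genes in either direction. The mean of 14 neuronal markers was at most 12.05 in Nestin-Pex5-/- and 12.06 to 12.19 in wild type hypothalamus, a narrow gap. The median log2 fold change of the 14 was -0.037 against -0.033 for all genes, with 3 above 0. At an unadjusted p under 0.05, 1 was higher and 4 were lower (limma), against 16.9% of all genes in either direction. Limma called 1 of the 14, the GABA vesicle transporter Slc32a1, which fell, at 0.694-fold. With 1 array left out, the call of Sox9 was lost without Nestin-Pex5-/- replicate 8 or 10, that of Bcas1 without Nestin-Pex5-/- replicate 8, 9 or 10 or wild type replicate 1, and that of Slc32a1 without Nestin-Pex5-/- replicate 8 or 9 or wild type replicate 1. The call of Gpr17 was lost without Nestin-Pex5-/- replicate 9 or 10 or wild type replicate 1, 2 or 3. With the mean of a gene's probe sets, Slc32a1 was at -0.16 on the log2 scale (limma adjusted p = 0.257) and Bcas1 at 0.19 (0.119). Sox9 was not called when scaled to Actb (limma adjusted p = 0.0511), and none of Sox9, Gpr17, Bcas1 and Slc32a1 was called without moderated variances (adjusted p 0.0844 to 0.125). The part of these shifts in the values of Abcd2, Dbi, Elovl1, Abca1 and Fabp7 was not tested.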

How the data were processed

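Hypothalamus of 4 Nestin-Pex5-/- and 4 wild type mice, named as biological replicates in the labels, was measured on 1 array per mouse. The deposited values are RMA signals on the log2 scale, computed by the authors. RMA corrects background, quantile-normalizes arrays and summarises probes. Its version and the earlier analysis steps are not given in the sources used here. Array medians lay between 6.70 and 6.84, and the number of arrays limits the precision. All columns were mapped to a sample.

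Of 45101 probe sets, 34958 paired with 1 gene were used, without a filter on level, which gave 18194 genes. Nestin-Pex5-/- was set against wild type in limma 3.58.1 under R 4.3.3 (lmFit, then eBayes), with Benjamini-Hochberg adjustment over all genes and a threshold of 0.05. Probe sets other than the main ones were tested in a fit over all 34958. The fit was tested on simulated data. Single values had an exact permutation test. Means and SDs of a list are of deposited log2 values. Alternatives changed the probe set, filter, scaling, variance model, test, threshold or arrays.

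The members and the gene lists were chosen with earlier results of these data known. Named genes were, from each list, up to 4 called genes with the largest change or, with none called, up to 2 with the highest level, and for each Abcd gene the 3 with the highest correlation. Of the cell type lists without a call, only Avp, Pmch and Ttr are named. The 40 measured markers of endothelium, choroid plexus, meninges, pituitary and thalamus gave 0 calls in limma. At an unadjusted p under 0.05 there were 5, against 16.9% of all genes. Genes with no single-gene probe set were not analysed here. Figures were drawn with matplotlib in Python.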

Additional observations from a re-analysis of the deposited data

Results flagged for a closer look

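No array stood apart from the rest of its genotype on any Abcd probe set. Among 78 sets of 4 arrays examined, 5 had 1 array far from the others, and chance alone gives about 1 in 20. All 5 lay in wild type hypothalamus. C1qb read 8.37 in replicate 2, against 8.72 to 8.74 in the others. Aqp4 read 11.69 in replicate 4, against 11.14 to 11.17. Sox9 read 7.67 in replicate 3, against 7.97 to 8.01. Pmch read 12.22 in replicate 3, against 12.75 to 12.83. Ttr read 10.51 in replicate 4, against 14.47 to 14.59.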

How the results depend on the processing

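Abcd2 stayed higher in Nestin-Pex5-/- hypothalamus in all 19 alternatives, with a log2 fold change of 0.21 to 0.28 when 1 array was left out (limma adjusted p 0.0617 to 0.277) and 0.12 to 0.28 otherwise (adjusted p 0.0327 to 0.333). Its call appeared with array weights alone (0.27, adjusted p = 0.0327), where the number of Abcd genes called was 1. The weights were lowest for wild type replicate 4 (0.274) and highest for Nestin-Pex5-/- replicate 9 (2.33). With 1 array left out, Abcd3 lay at 0.050 to 0.10 and Abcd4 at 0.028 to 0.099. Scaled to Actb they turned to -0.059 and -0.064, and scaled to the reference genes they were at 0.11 and 0.10. Abcd4 has no value with the filter on level, being below the median of all genes. No paired analysis was possible because the genotypes share no replicate number.

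The number of genes called was 868 (724 higher, 144 lower) and 521 with the filter on level. It was 1626 scaled to Actb (540 higher, 1086 lower) and 952 scaled to the reference genes (851 higher, 101 lower). It was 2050 with array weights (1351 higher, 699 lower), 560 without moderated variances and 487 at a threshold of 0.01. With 1 array left out it was 593 to 1411, the highest without wild type replicate 4.

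Uncalled genes near 0 changed sign. Scaled to Actb, Avp was at -0.12, Fis1 at -0.059, Lmbrd1 at -0.12 and Scp2 at -0.12. Avp was at -0.013 after renewed quantile normalization and -0.11 with array weights. Scp2 was at -0.033 as a mean of probe sets, -0.18 with the probe set of smallest p and -0.021 without _s_at and _x_at probe sets. With 1 array left out, Avp ranged from -0.14 to 0.13, Lmbrd1 from -0.016 to 0.018, Scp2 from -0.058 to 0.074 and Ttr from -0.24 to 1.12. In these 19 alternatives Abca1, Abca9 and Fabp7 kept their calls. No signal over background was at hand, so the share of background in dim probe sets is unknown.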
